A study of Mus musculus with 3 samples.

Results

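The variable (V) segments of the T cell receptor (TCR) beta chain were described as all genes whose symbol starts with Trbv, 35 of the 32285 genes in the feature lists. Usage of a segment was taken as the percentage of cells with at least 1 UMI (a counted molecule) of that segment among cells with a UMI of any Trbv gene. The study sorted follicular T cells from mouse spleen at day 14 after immunisation with ovalbumin (OVA) in liposomes and profiled them by 10x Chromium 3′ single-cell RNA-seq. Wild-type (WT) mice and mice labelled Siglec-G B-cell knockout (BKO), in which the deletion lies in B cells and the sequenced cells are T cells, were given the same immunisation. WT replicate 1 and BKO were labelled batch 1 and WT replicate 2 batch 2. The labels give neither the Cre driver nor the number, age or strain of the mice. The authors' tables divide the cells into T follicular helper (Tfh) cells, which help B cells, and T follicular regulatory (Tfr) cells, which restrain that help, and into numbered subclusters.

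Each TCR beta chain gene is built in the thymus by joining 1 V segment to a diversity (D) and a joining (J) segment, and the product is spliced to constant segment Trbc1 or Trbc2. The V segment encodes the part of the chain that touches the MHC molecule and, at its end, the start of the third complementarity-determining region (CDR3), which contacts the peptide. The daughters of a T cell carry the same V segment, so usage in an immunised spleen also reflects which cells have divided.

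The WT samples held the same cells sequenced in 2 runs, since 5068 of 5192 barcodes were annotated in both, and they are called WT run 1 and WT run 2 here. Of 1200 cells with exactly 1 segment in each run, 1179 had the same segment in both (98.25%, exact 95% binomial interval 97.3% to 98.9%). The product of the segment shares would give 9.53%. BKO shared 13 barcodes with WT run 2. Each genotype was therefore 1 library, no test was possible, and no p-value is given. Intervals are exact 95% Clopper-Pearson intervals, which cover counting error only and treat cells as independent, which cells of 1 clone are not. The tables hold 3727, 3668 and 6389 Tfh cells and 1416, 1449 and 2044 Tfr cells in WT run 1, WT run 2 and BKO, with median UMIs per cell from 4413 to 8407. Siglecg, the targeted gene, had 4 UMIs or fewer in each class and library and checks nothing in T cells. Summed markers of alpha-beta T cells (5 genes) stood at 4629 to 5990 CPM (UMIs of a gene scaled to a common total), while those of B cells (4 genes) and gamma-delta T cells (4 genes) stood at 2.40 to 8.64 and 2.41 to 9.93 CPM. For CD8 T cells and NK cells (5 genes) the sum in Tfh cells was 258 and 238 CPM in the WT runs and 34.5 CPM in BKO, and in Tfr cells 89.1, 63.2 and 38.2 CPM. Nkg7, a cytotoxic granule gene, made up most of it in Tfh cells, at 249 and 230 CPM against 27.6 CPM, with a UMI in 17.4% and 20.5% of cells against 4.63%. Ncr1 was at 0 in every library and class except WT run 2 Tfh, and Cd8a had 0 or 1 UMI in each. Cd8b1 stood at 9.02, 8.06 and 6.09 CPM in Tfh cells, and at 10.2, 9.30 and 11.6 CPM in Tfr cells. Klrd1 stood at 0.480, 0.468 and 0.847 CPM in Tfh cells. The lower sum in BKO was thus mostly that of Nkg7, and not every member was lower. The part of these genes in the results was not tested. Tfr and Tfh markers are given for WT run 1, WT run 2 and BKO in turn. Ctla4 had a UMI in 69.5%, 78.3% and 84.9% of Tfr cells and 34.5%, 43.2% and 44.7% of Tfh cells. Il2ra had one in 25.9%, 35.5% and 23.0% of Tfr cells and 5.53%, 7.25% and 3.41% of Tfh cells. Ikzf2 had one in 98.7%, 99.2% and 99.2% of Tfr cells, but also in 83.2%, 88.4% and 88.3% of Tfh cells. Summed Tfh markers (5 genes) stood at 908, 921 and 1081 CPM in Tfh cells and 819, 827 and 1016 CPM in Tfr cells. Of these only Icos was higher in Tfr cells. Foxp3, the defining factor of regulatory T cells, had a UMI in 100% of Tfr cells in each library. With no Tfr cell lacking it, Foxp3 is no separate check of that class. In Tfh cells it had one in 0.402% of WT run 1, 9.95% of WT run 2 and 0.908% of BKO cells, so the Tfh class of WT run 2 was not divided alike in the deposited counts.

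The germline ends of the segments on which the results turn lie in a locus on chromosome 6 of GRCm38 and are printed here. Each line gives the last 75 bases of the segment, 5′ to 3′, from the GENCODE vM21 transcripts. Capitals run from the codon of the conserved cysteine, where CDR3 begins, to the end of the segment. The first group holds the most used segment, Trbv2 (chr6:41047340-41047995, plus strand), and segments whose usage or partners differed in BKO, with Trbv23 at chr6:41216073-41216526.
Trbv2: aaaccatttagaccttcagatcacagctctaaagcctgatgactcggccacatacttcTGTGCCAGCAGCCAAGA
Trbv23: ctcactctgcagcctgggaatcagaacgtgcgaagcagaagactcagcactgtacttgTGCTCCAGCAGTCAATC
Trbv16: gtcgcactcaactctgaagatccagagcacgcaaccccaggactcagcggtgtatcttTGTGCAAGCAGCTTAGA
Trbv19: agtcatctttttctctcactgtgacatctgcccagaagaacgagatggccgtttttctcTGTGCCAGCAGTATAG
Trbv26: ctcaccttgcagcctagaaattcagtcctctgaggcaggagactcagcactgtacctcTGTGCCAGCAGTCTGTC

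The second group holds the Trbv13 and Trbv12 families. Members within each family are near copies of each other, which bears on how reads can be assigned. Usage of Trbv13-1 and Trbv12-1 also differed in BKO.
Trbv13-1: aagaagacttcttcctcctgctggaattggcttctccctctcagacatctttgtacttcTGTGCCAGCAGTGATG
Trbv13-2: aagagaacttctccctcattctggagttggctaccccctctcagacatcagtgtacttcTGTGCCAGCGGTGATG
Trbv13-3: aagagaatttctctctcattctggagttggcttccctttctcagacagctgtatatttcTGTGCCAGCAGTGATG
Trbv12-1: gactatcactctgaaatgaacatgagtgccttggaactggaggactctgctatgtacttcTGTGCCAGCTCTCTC
Trbv12-2: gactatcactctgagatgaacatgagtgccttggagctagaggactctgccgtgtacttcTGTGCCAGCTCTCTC
Trbv13-2 and Trbv13-3 were identical at 90.6% of aligned bases with a longest shared run of 50 bases, and Trbv12-1 and Trbv12-2 at 88.3% with a run of 44 bases. Among 595 pairs of segments, 2 shared a run of at least 50 bases, and the median longest shared run was 10 bases. Counts of the Trbv12 and Trbv13 families could be split between copies and are uncertain to that extent.

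Of the 35 segments, 22 are annotated as functional and every one of them had UMIs in all 3 samples. The other 13 are annotated as pseudogenes. Of these 8 had no UMI, Trbv24 had 76 UMIs over the samples, and no other had more than 6. Trbv31 is the only segment on the minus strand and the only one that lies beyond Trbc2 (chr6:41557691-41558452), so it joins by inversion. It was used in 3.15%, 3.96% and 3.32% of Trbv-positive Tfh cells in WT run 1, WT run 2 and BKO.

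A Trbv UMI was found in at most 49.5% of the cells of a class and library. In Tfh cells the share with any Trbv UMI was 33.2% (31.7% to 34.8%) for WT run 1, 49.5% (47.9% to 51.1%) for WT run 2 and 47.7% (46.4% to 48.9%) for BKO. In Tfr cells it was 31.6%, 46.5% and 38.3%. The share rose with depth: in BKO it was 21.9% of cells under 3000 UMIs and 60.5% of cells with at least 12000. Thinned to 2500 UMIs per cell, which left out 56 to 194 Tfh cells and 2 to 36 Tfr cells per library, the share in Tfh cells was 20.2% in WT (mean of the runs) and 25.3% in BKO, and in Tfr cells 17.5% and 16.7%. The numbers of Trbv-positive cells behind all usage values are 1239, 1816 and 3045 for Tfh and 448, 674 and 782 for Tfr.

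Most positive cells showed a single segment. More than 1 segment was seen in 7.02%, 14.1% and 12.2% of positive Tfh cells and in 8.93%, 14.2% and 11.1% of positive Tfr cells. No annotated cell type that lacks Trbv transcripts was available to measure free RNA. In BKO, barcodes with 1 to 50 UMIs held Trbv UMIs at 93.7 CPM against 107 CPM in annotated cells, so free RNA carried Trbv transcripts at nearly the level of the cells, and its part in cells with more than 1 segment was not tested. The WT matrices hold no barcodes in that range.

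Trbv2 was the most used segment in every class and library. In Tfh cells it was used by 19.5% (241 of 1239) of positive cells in WT run 1 and 18.2% (330 of 1816) in WT run 2, against 24.96% (760 of 3045) in BKO. Trbv12-2 followed at 10.7%, 12.2% and 12.1%, and then came, in WT order, Trbv13-2 at 9.28%, 9.86% and 7.45%, Trbv19 at 8.64%, 9.42% and 9.75%, Trbv13-1 at 8.47%, 8.92% and 4.66% and Trbv3 at 8.39%, 8.87% and 8.37%. The intervals of these last 4 segments overlap within WT run 1 and within WT run 2, so their order there is not resolved. The interval of Trbv12-2 also overlaps those of Trbv13-2 and Trbv19 in both WT runs. In BKO, Trbv19 (8.72% to 10.9%) followed Trbv12-2 and lay above Trbv13-2 (6.55% to 8.45%) beyond the intervals, with Trbv3 between them. At the low end, functional segments Trbv5, Trbv21 and Trbv30 stayed under 1% in every Tfh library. Trbv2 also gave the most UMIs per positive cell, 2.03 in BKO against 1.00 to 1.67 for the other segments, so its share of detected cells need not equal its share of all cells.

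**Figure D1:**
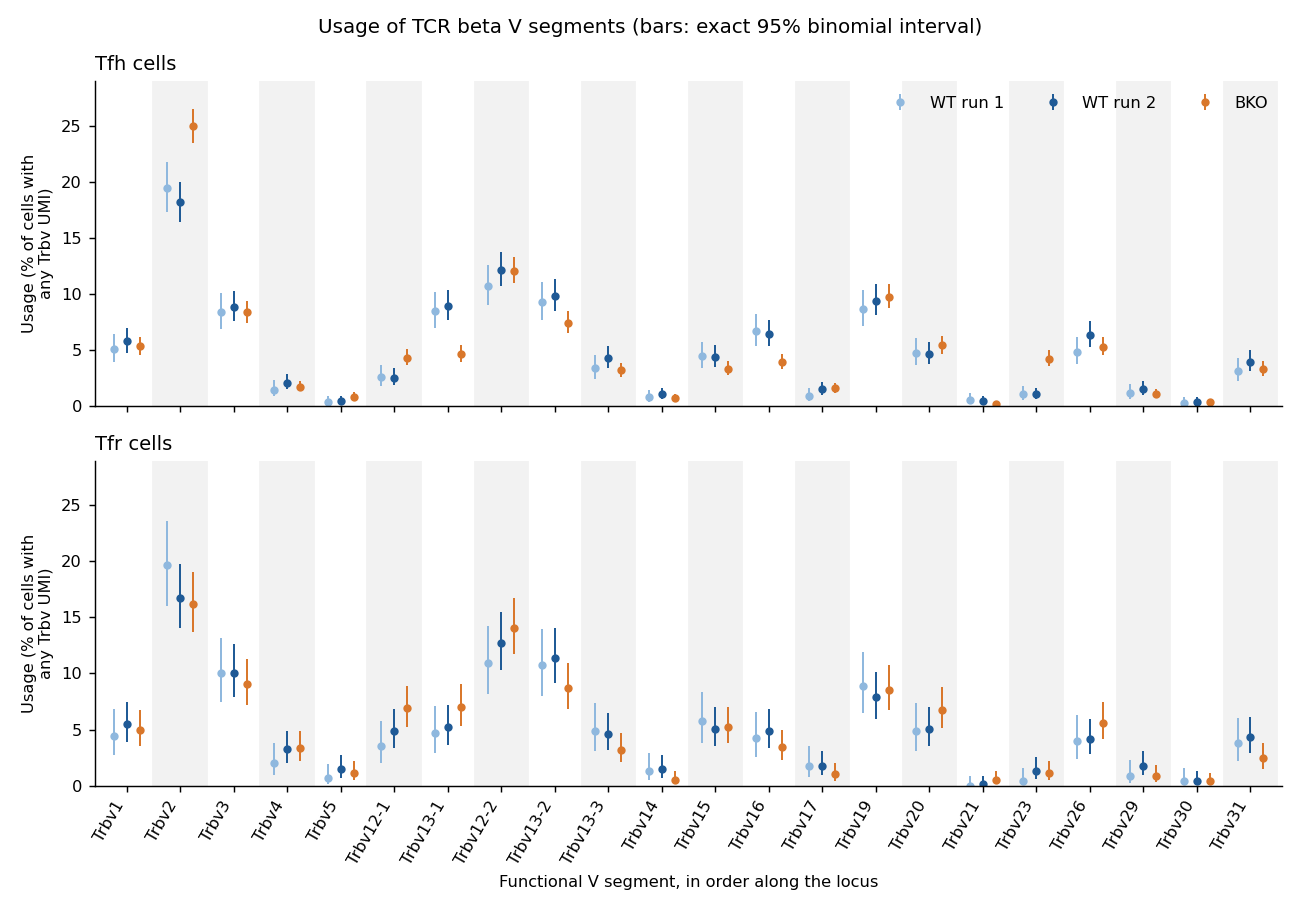
Usage of the 22 functional V segments (percentage of cells with any Trbv UMI) in Tfh cells (top) and Tfr cells (bottom), for WT run 1, WT run 2 and BKO, with exact 95% binomial intervals as bars. Both WT runs lie close together, while in Tfh cells Trbv2, Trbv12-1 and Trbv23 stand higher and Trbv13-1 and Trbv16 lower in BKO.

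The first comparison asked how usage in BKO Tfh cells stood against WT Tfh cells. Trbv23 was the segment that differed most. It was used by 1.05% of positive cells in WT run 1 (13 cells), 1.05% in WT run 2 (19 cells) and 4.24% in BKO (129 cells, interval 3.55% to 5.01%). The BKO interval lies above both WT intervals (0.560% to 1.79% and 0.631% to 1.63%), and usage was 4.04-fold the WT mean, a log2 ratio of 2.02. Trbv12-1 was also higher, at 2.58%, 2.53% and 4.33% (log2 ratio 0.76).

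Trbv13-1 and Trbv16 were lower. Trbv13-1 was used by 8.47% of positive Tfh cells in WT run 1 and 8.92% in WT run 2, against 4.66% in BKO, a log2 ratio of -0.90. Trbv16 was used by 6.70%, 6.44% and 3.94%, a log2 ratio of -0.74. For both, the BKO interval (3.94% to 5.47% and 3.28% to 4.69%) lies below both WT intervals. These 4 are the segments that met a size rule, a mean usage of at least 1% and a BKO value at least 1.5 times beyond both WT runs.

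Of 18 segments over the minimum in Tfh cells, 2 were thus higher and 2 lower in BKO, with a median log2 ratio of -0.04. The same rule on the same measure over 11776 genes called 0.552% higher and 3.09% lower, with a median of -0.05. Trbv2 did not meet the rule: its usage was 6.15 percentage points above the WT mean, a log2 ratio of 0.41, and its BKO interval (23.4% to 26.5%) lies above both WT intervals, of which the higher is 17.3% to 21.8%. The other 13 segments over the minimum had log2 ratios from Trbv15 at -0.40 to Trbv17 at 0.41. With a UMI minimum of 2, Trbv12-1 no longer met the rule and 5 segments were lower. With shares of Trbv UMIs Trbv12-1 did not meet it either, and Trbv29 was lower as well. Counting only cells with exactly 1 segment, Trbv16 no longer met it and 1 was lower. Thinned to 2500 UMIs, Trbv16 (log2 ratio -0.52) did not meet it and Trbv31 did. Without Tfh subclusters 5 and 6, the same 4 segments met the rule.

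In Tfr cells no segment was higher in BKO and 4 were lower, of which 3 were used by under 2% in each library. Trbv31 was used by 3.79%, 4.30% and 2.43% of positive Tfr cells (17, 29 and 19 cells; log2 ratio -0.74). Trbv17 was used by 1.79%, 1.78% and 1.02%, Trbv14 by 1.34%, 1.48% and 0.512%, and the pseudogene Trbv24 by 1.12%, 1.34% and 0.639%. For these 3, BKO held 8, 4 and 5 cells. In all 4 the BKO interval overlaps both WT intervals, so none was resolved at this depth.

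These counts are of 20 segments over the minimum in Tfr cells, where the rule called 1.12% of 11945 genes higher and 3.83% lower. The median log2 ratio of the 20 segments was -0.10, and that of all genes -0.08. Against WT run 1 alone 3 segments were higher (Trbv4, Trbv12-1 and Trbv13-1) and 3 lower. Trbv23, which stood out in Tfh cells, was used by 0.446%, 1.34% and 1.15% of positive Tfr cells (2, 9 and 9 cells), under the minimum mean of 1%. Trbv12-1 had ratios of like size in both classes, 0.76 in Tfh and 0.71 in Tfr, but WT run 2 Tfr cells at 4.90% stood within 1.5 times of BKO at 6.91%. The ratios of both classes come from the same libraries and are set side by side without a test.

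**Figure D2:**
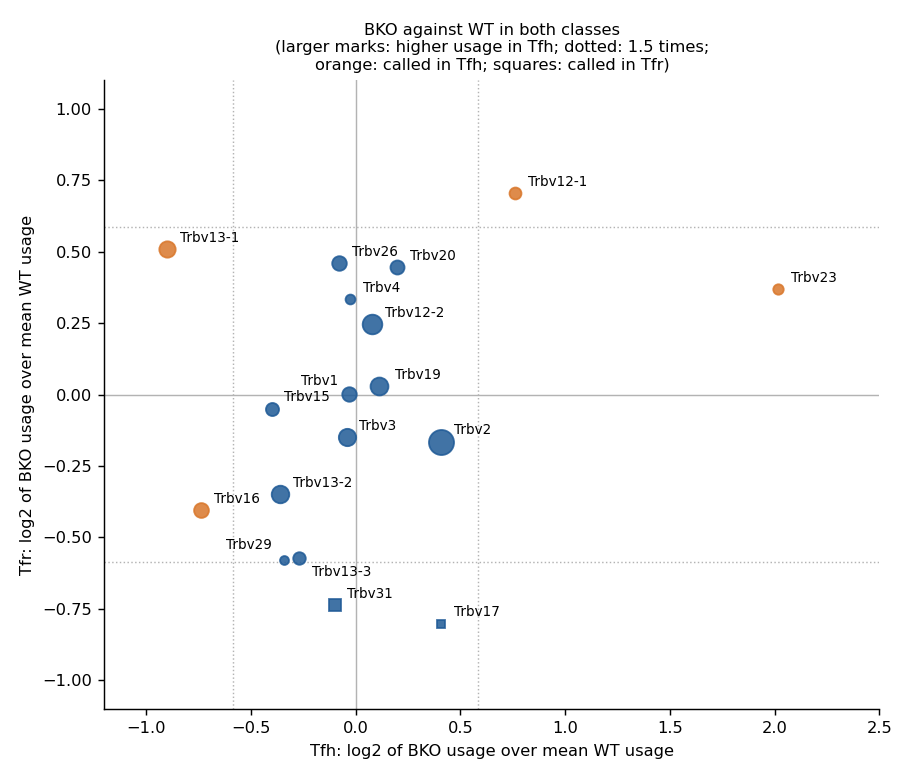
Log2 ratio of BKO usage over the mean of the WT runs in Tfh cells (horizontal axis) and Tfr cells (vertical axis) for 18 segments, with dotted lines at 1.5 times, larger marks for higher usage, orange for segments that met the rule in Tfh and squares for those that met it in Tfr. Trbv14 and Trbv24, which met the rule in Tfr, were under the minimum in Tfh and are not shown. Trbv23 lies far to the right at 2.02, and Trbv13-1 has ratios of opposite sign, -0.90 in Tfh and 0.51 in Tfr.

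The next comparison set Tfr against Tfh cells within each library. No segment of 18 was at least 1.5 times higher in Tfr in all 3 samples and none was lower, while 5.51% and 1.82% of 11907 genes were. Trbv2 was used by 19.6%, 16.8% and 16.2% of positive Tfr cells, against 19.5%, 18.2% and 24.96% in Tfh cells. The classes were close for Trbv2 in WT, while in BKO usage in Tfh was 1.54 times that in Tfr and the intervals do not overlap. Trbv12-1 was higher in Tfr in each library, with ratios of 1.38, 1.93 and 1.59, and Trbv4 likewise with 1.38, 1.56 and 1.91. WT run 1 kept both under the rule. Trbv13-1 pointed opposite ways. Its usage was 4.69% in Tfr against 8.47% in Tfh in WT run 1, 5.19% against 8.92% in WT run 2, and 7.03% against 4.66% in BKO. The intervals of the 2 classes overlap in WT run 1 and in BKO.

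The effective number of segments (the inverse Simpson index over cells with exactly 1 segment) says how many equally used segments would give the same diversity. In Tfh cells it was 11.5 (10.6 to 12.4) and 12.2 (11.5 to 13.0) in the WT runs against 9.95 (9.36 to 10.6) in BKO, where the interval comes from multinomial counting error. In Tfr cells it was 11.9 (10.5 to 13.7), 13.7 (12.4 to 15.2) and 13.3 (12.3 to 14.5). BKO Tfh cells thus had the lowest value of the 6, and their upper bound (10.616) lies just under the lower bound of WT run 1 Tfh cells (10.633).

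Within Tfh subclusters, BKO lay below both WT runs beyond the intervals in subcluster 0. The effective number there was 7.21 (6.26 to 8.49) in BKO against 10.9 (9.21 to 13.3) and 11.9 (10.5 to 13.7) in the WT runs. There Trbv2 was used by 33.2% of positive cells in BKO (217 of 654), against 23.0% (81 of 352) and 21.0% (117 of 558). In subcluster 2 the effective number was 9.09 (8.17 to 10.2) in BKO against 11.6 (9.58 to 14.6) and 10.4 (8.39 to 13.6), with overlapping intervals, and Trbv2 was used by 27.0% in BKO (266 of 984) against 12.3% (10 of 81) and 15.3% (17 of 111). In subcluster 1 it was used by 15.1% in BKO against 18.5% and 17.8%, so the higher Trbv2 usage was not seen there. Subcluster 2 made up 34.1% of BKO Tfh cells against 6.90% and 7.33% in WT, so usage in the whole class also depends on makeup. The sources used here do not say whether TCR genes entered the clustering.

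Trbv23 was uneven over the BKO subclusters. It was used by 7.72% of positive cells of subcluster 3 (52 of 674), 5.48% of subcluster 4 (12 of 219), 4.78% of subcluster 2 (47 of 984), 1.38% of subcluster 0 (9 of 654) and 0.260% of subcluster 1 (1 of 385). The WT runs held 1.75% and 0.923% in subcluster 3, and 0 cells of 81 and 111 in subcluster 2, which allows up to 3.70% and 2.70%. In subcluster 3, then, BKO lay above both WT runs beyond the intervals, and in subcluster 1 it was the lowest of the 3.

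Trbv13-1 was lower in BKO in 4 of the 5 largest Tfh subclusters. In subcluster 2 it was used by 12.3% and 13.5% in WT and 3.35% in BKO, and in subcluster 0 by 10.2%, 9.86% and 5.35%. In subcluster 1 it was used by 3.62%, 4.82% and 5.97%, with overlapping intervals. Trbv12-1 had its highest value in that same subcluster, 10.4% in BKO (40 of 385) against 2.90% and 3.05% in WT.

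Trbv19 differed between subclusters in both genotypes. In subcluster 3 it was used by 14.8% and 20.6% in WT and 13.9% in BKO, and it was the leading segment there in WT run 2. In subcluster 0 it was used by 4.83%, 3.94% and 4.89%. In WT subcluster 5, of which BKO held 11 cells, it was used by 1.80% (2 of 111) and 2.35% (4 of 170). The class totals of 8.64%, 9.42% and 9.75% thus combine subclusters that differ more than the genotypes do. Of the Tfr subclusters with at least 50 positive cells, only subclusters 1 and 2 in WT had a segment at 20% or more, Trbv2 at 20.5% (18 of 88) in subcluster 1 of run 2 and at 21.0% (13 of 62) in subcluster 2 of run 1.

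**Figure D3:**
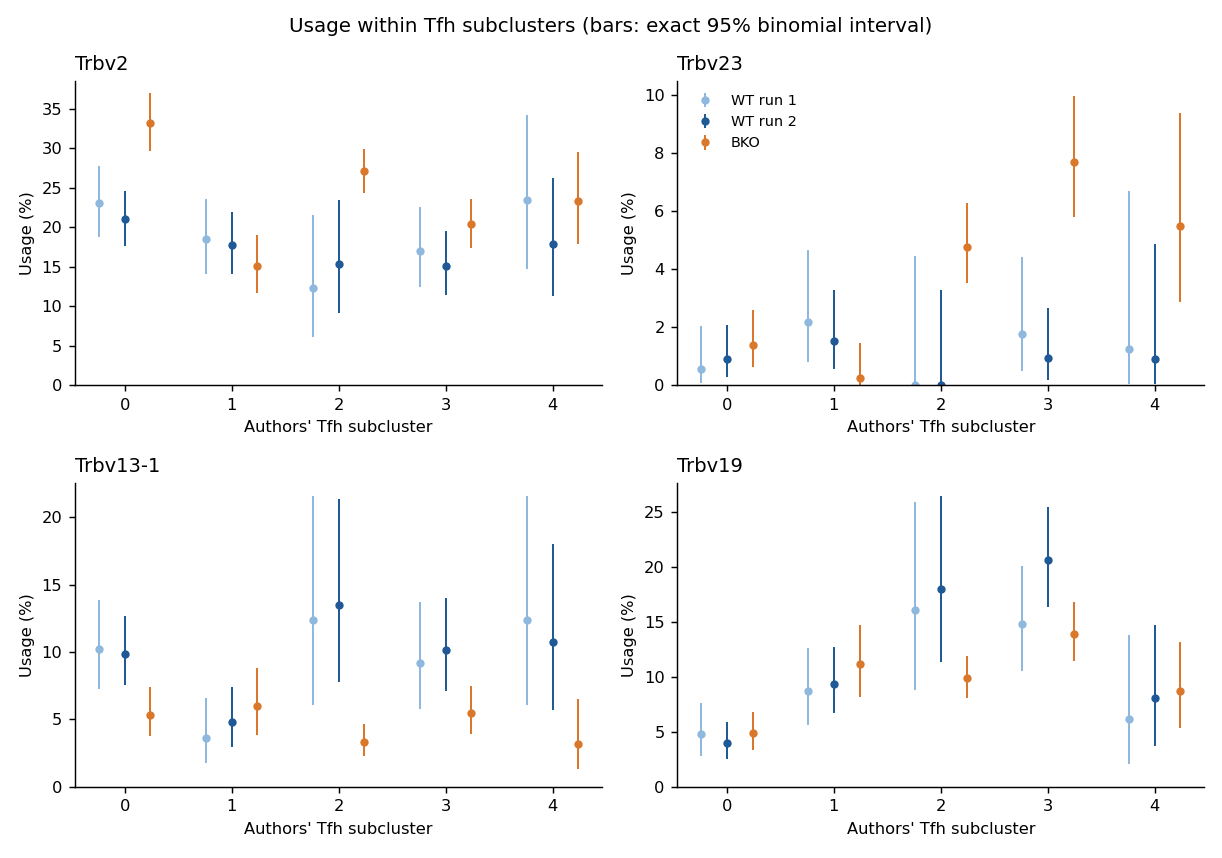
Usage (percentage of Trbv-positive cells) of Trbv2, Trbv23, Trbv13-1 and Trbv19 in the authors' Tfh subclusters 0 to 4 for WT run 1, WT run 2 and BKO, with exact 95% binomial intervals. In BKO, Trbv2 is highest in subcluster 0 at 33.2% and Trbv23 in subcluster 3 at 7.72%, and Trbv19 is low in subcluster 0 in all 3 libraries.

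The constant segment next to each V segment was then read, since a chain uses 1 of the 2. Among Tfh cells with at least 5 Trbc UMIs, those with over 50% of them from Trbc1 made up 30.6% and 30.0% in the WT runs against 26.8% in BKO. In cells with Trbv23 this share was 41.7% (5 of 12) and 42.1% (8 of 19) in WT and 6.20% (8 of 129, interval 2.72% to 11.9%) in BKO. These cells were not free of Trbc1, however: their median Trbc1 share was 20%, against 17.6% in all BKO Tfh cells, and 20.9% of them had a share under 10%, against 38.7% of all. The share of cells with over 50% Trbc1 was also lower in BKO for Trbv13-1, with 44.8% and 49.1% in WT and 26.8% in BKO.

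Other segments had a high Trbc1 share in BKO. Trbv13-3 cells stood at 39.0%, 38.5% and 56.7%, and Trbv26 cells at 29.3%, 40% and 48.1%. For each, the BKO interval overlaps both WT intervals. Trbv31 lies on the far side of both constant segments, and its cells had 26.3%, 23.9% and 12.9%, with overlapping intervals. Trbv2 cells were close to the class, with 25.1%, 24.8% and 30.4%. Trbc1 and Trbc2 are near-identical in their coding part, so the split of reads between them is uncertain.

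**Figure D4:**
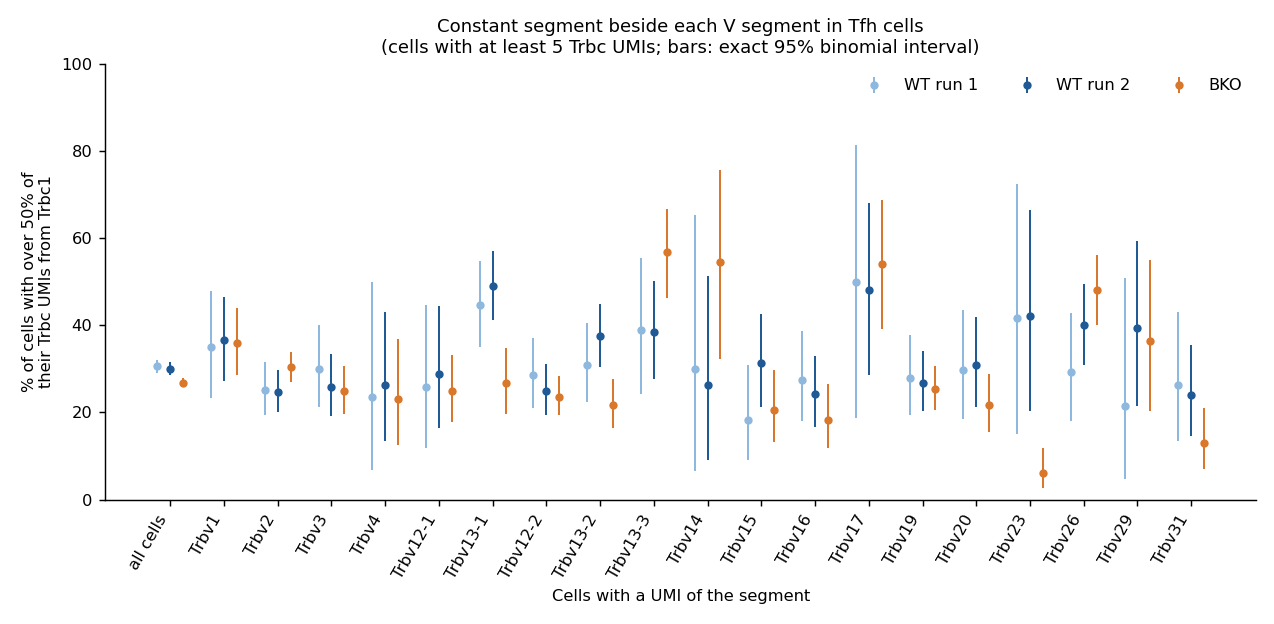
Percentage of Tfh cells with over 50% of their Trbc UMIs from Trbc1, among cells with at least 5 Trbc UMIs, for all cells and for cells with each V segment, in WT run 1, WT run 2 and BKO, with exact 95% binomial intervals. Trbv23 in BKO stands lowest at 6.20%, and Trbv13-3 in BKO at 56.7% stands above all cells of its library at 26.8%.

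Alpha chain V segments (Trav) in the same cells gave a second view of the beta segments, chosen after the values above were seen. A Trav UMI was found in 30.7%, 43.4% and 42.1% of Tfh cells, and 416, 822 and 1335 Tfh cells had UMIs of both chains. Many Trav genes have near-identical copies, so the copy named is uncertain. Of the 46 BKO Tfh cells with Trbv23 and any Trav UMI, 40 had Trav4-3 (15 cells), Trav5-4 (15) or Trav12-2 (13), and 3 of the 40 had 2 of them. These 3 segments were picked as the ones most often seen in those same cells, so their high share there is a description. In other BKO Tfh cells with both chains these segments were found in 1.55%, 5.74% and 1.71%. The WT runs held 2 and 6 such Trbv23 cells, of which 0 and 1 had any of the 3, too few to compare.

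Several further BKO segments had a frequent alpha partner. Trbv13-3 was seen with Trav14n-3 in 24 of 52 BKO Tfh cells (46.2%, interval 32.2% to 60.5%) and in 0 of 15 and 0 of 36 WT cells, which allows up to 20% and 8.33%. All 24 of these cells were Trbc1 cells. Trbv19 was seen with Trav7n-4 in 39 of 154 BKO cells (25.3%) and in 0 of 52 and 0 of 95 WT cells (up to 5.77% and 3.16%), and 1 of the 39 was a Trbc1 cell. The sharp constant segment usage of these groups, 24 of 24 and 1 of 39, stands beside 26.8% for all BKO Tfh cells.

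Trbv26 was seen with Trav4-4-dv10 in 29 of 81 BKO cells (35.8%), against 1 of 21 and 2 of 47 in WT. Constant segment usage was mixed in this pair, with 14 Trbc1 cells of 29 (48.3%). Trbv3 was seen with Trav16 in 22 of 111 (19.8%), against 1 of 22 and 3 of 58. Trbv19 was seen with differently named Trav13 segments in the 2 genotypes. With Trav13n-1 it was found in 8 of 52 cells in WT run 1, 11 of 95 in run 2 and 0 of 154 in BKO (up to 1.95%). Of the 11 cells of WT run 2, 8 were in subcluster 3, the subcluster where Trbv19 led, and 1 was a Trbc1 cell. With Trav13d-4 it was found in 21 of 154 BKO cells (13.6%) and in 0 of 52 and 0 of 95 WT cells (up to 5.77% and 3.16%). Of these 21 cells 14 were in subcluster 3 and 0 were Trbc1 cells. Whether both names mark like alpha chains was not tested.

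Trbv17 in BKO was tied to Trbv2. Both segments were found together in 23 BKO Tfh cells, against 0 and 1 in the WT runs, and together with any Trav UMI in 11, of which 8 had Trav6-7-dv9. Of these 23 cells 19 (82.6%) were Trbc1 cells, against 28.7% of cells with Trbv2 alone and 28% of those with Trbv17 alone. Over both classes, the pair was seen 1.77 times as often as the product of the segment shares, while 25 of 32 pairs of segments with at least 5 BKO cells were seen less often than that product. Of the 7 BKO pairs at or over the product, Trbv12-1 with Trbv31 came next at 1.71 times, in 10 cells. The pair Trbv12-2 with Trbv13-2, neighbours in the locus, was seen 1.63 times as often in BKO and 1.36 times in WT run 2. Counting only cells with exactly 1 segment, the log2 ratio of Trbv17 in Tfh cells was -0.66 in place of 0.41, and with at least 2 UMIs it was -1.08.

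**Figure D5:**
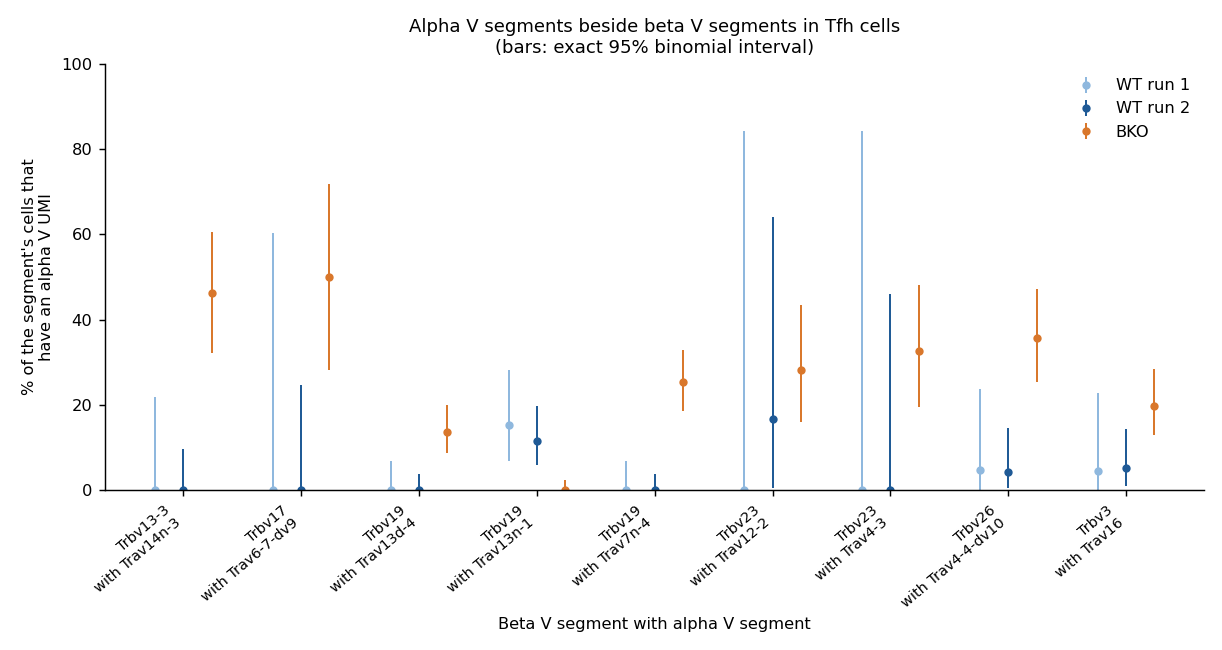
Percentage of Tfh cells with the named alpha V segment, among cells with a UMI of the beta V segment and of any alpha V segment, in WT run 1, WT run 2 and BKO, with exact 95% binomial intervals. The pairs were chosen as those with at least 10 cells and 5 times the product of shares in a library, so their height there is a description. Trbv13-3 with Trav14n-3 reaches 46.2% in BKO. Trbv19 is seen with Trav13n-1 in WT alone and with Trav13d-4 in BKO alone.

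By that choice, pairs with at least 10 cells and at least 5 times the product of shares, 8 pairs were found in BKO Tfh cells, 1 in WT run 2 and 0 in WT run 1. BKO has more cells, which raises such a count. With at least 1% of the cells with both chains (and at least 5 cells) in place of 10 cells, there were 6, 1 and 3 pairs. The 8 pairs covered 12.8% of BKO Tfh cells with both chains. This choice leaves out Trbv2 in advance: it was in 342 of these 1335 cells, too many for 5 times the product. Its most frequent partner was Trav6-7-dv9, in 62 of the 342 (18.1%), against 5.34% of the other cells with both chains. Without the cells of these 8 pairs the same numbers of segments met the rule in Tfh cells, 2 higher and 2 lower. The log2 ratio of Trbv23 was then 1.82. Only cells with a UMI of both segments of a pair could be left out. Of the 129 BKO Tfh cells with Trbv23, 46 had any Trav UMI, and Trbv23 with Trav5-4 was not among the 8 pairs. Whether the calls depend on the paired groups cannot be read from this setting. In Tfr cells 2 pairs were found, both in BKO: Trbv4 with Trav9-4 and with Trav13-4-dv7, each in 11 of 19 cells. The 2 pairs together covered 15 Tfr cells, so part of these cells had both alpha segments. In Tfh cells of BKO the pairs were found in 9 of 25 and 5 of 25 Trbv4 cells. The 3′ reads do not cover the junction, so whether cells of a pair share 1 rearrangement was not tested.

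In the rest of the receptor complex no measured gene met the size rule. From a list of 27 genes of the TCR beta chain and CD3 complex, 7 were measured at a mean of at least 20 CPM, and 0 met the size rule on CPM in either class, against a background of 0.396% higher and 2.45% lower among 6559 genes in Tfh cells and 0.887% higher and 2.4% lower among 6539 in Tfr cells. Their median log2 ratio was 0.17 in Tfh and 0.30 in Tfr cells, but members pointed opposite ways. Trac, the alpha constant segment, had log2 ratios of 0.37 and 0.48, and Cd247, the zeta signalling chain, -0.42 and -0.36. Trbc1 stood at 1286, 1231 and 1213 CPM in Tfh cells and Trbc2 at 2238, 2142 and 2462 CPM. Both were lower in Tfr cells, at 1033, 1016 and 1038 CPM and at 1931, 1854 and 2107 CPM. The 16 D and J segments gave 7 UMIs in all Tfh cells and 0 in Tfr cells.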

How the data were processed

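For each of the 3 samples the authors deposited UMI counts by gene and barcode, beside 1 table of Tfh and 1 of Tfr cells that give each cell's subcluster. The submitters' processing notes name Cell Ranger and mm10. Per the file headers the version was 7.0.1 for WT and 4 for BKO; the former counts introns by default and the latter does not, and the sources used here do not say which setting was used. The BKO matrix is unfiltered. Doublet treatment is not stated and no caller was run. Cells were matched to the tables by barcode, and barcode endings gave the run. The tables' UMI totals equalled the matrix in 79.4% of WT run 1 Tfh cells but in no cell of WT run 2. Run 2 was assigned from its barcodes, all of which lie in its matrix while 40 of the Tfh barcodes are missing from that of run 1; no Tfr barcode separates the runs. The WT runs hold the same cells and count as 1 library.

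Usage, intervals and the size rule were computed with Python 3.11.15, numpy 2.4.6, scipy 1.17.1 and pandas 2.3.3. On simulated independent cells the rule called the segments whose usage had been changed. False calls and the coverage of the intervals were not tested there. Sequences were aligned with Biopython 1.88. Segments were named if used by at least 5% in a class and sample, past the size rule, or by at least 20% in a subcluster with at least 50 positive cells; further ones were named after their values were seen. The members and lists were chosen with earlier results of these data known.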

Additional observations from a re-analysis of the deposited data

Results flagged for a closer look

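Trbv13-1 was less used in Tfr than in Tfh cells in both WT runs and more used in BKO. The log2 ratio of Tfr over Tfh usage was -0.85 and -0.78 in the WT runs against 0.59 in BKO, each past 1.5 times. The WT runs are the same cells, and the difference between genotypes was not tested. In Tfr cells 21, 35 and 55 cells carried the segment. The intervals of usage in Tfr and Tfh cells overlap in WT run 1 and in BKO (5.34% to 9.06% and 3.94% to 5.47%), and do not in WT run 2.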

How the results depend on the processing

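No paired analysis was possible because the WT replicates are runs of the same cells and only replicate 1 is shared with BKO. For BKO against WT in Tfh cells, 1 segment was higher with at least 2 UMIs and with shares of Trbv UMIs, 5 were lower with at least 2 UMIs, and 1 was lower with exactly 1 segment. In Tfr cells, leaving out 1 WT run gave 0 to 3 segments higher and 3 lower. At least 2 UMIs and thinning gave 2 higher each, and exactly 1 segment gave 1 higher and 2 lower. UMI shares gave 2 lower, and a minimum usage of 2% gave 1. For Tfr against Tfh, leaving out 1 WT run gave 0 to 2 higher and 0 to 1 lower. The union of the runs gave 2 higher. At least 2 UMIs, exactly 1 segment, UMI shares and the same class in both runs gave 1 higher each, and thinning 1 lower. The cause was not tested.

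The share of Tfh cells with any Trbv UMI was 41.4% in WT as the mean of the runs and 33.2% to 49.5% with 1 run, 52.2% in their union, 11.7% with at least 2 UMIs and 20.2% thinned; in WT Tfr cells the values were 39.1%, 31.6% to 46.5%, 49.7%, 10.1% and 17.5%. In BKO, at least 2 UMIs gave 16.7% of Tfh and 10.8% of Tfr cells, and thinning 25.3% and 16.7%. The effective number with at least 2 UMIs was 6.67 in WT Tfh, 8.06 in WT Tfr, 5.23 in BKO Tfh and 8.96 in BKO Tfr cells, where Trbv2 gains weight by its UMIs per cell. Thinned, it was 11.04 in WT Tfh and 8.74 in BKO Tfh cells. In the class where a segment met the rule, its ratio kept its sign under the settings that gave a value. Trbv17, which met it in Tfr cells, did not hold its sign in Tfh cells: its log2 ratio there was 0.41, it was higher past the rule against WT run 1 alone (0.83) and lower past it with at least 2 UMIs (-1.08). The last setting, leaving out cells of the largest alpha and beta pairs, was chosen after seeing the data. Depth limits detection: cells without a Trbv UMI are not cells without a beta chain.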
